A study of Mus musculus with 6 samples.

Results

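The comparison asks where HCFC1 was still found on chromatin, and where it no longer was, when HCFC1 itself had been depleted. It sets all 12610 HCFC1 peaks listed after HCFC1 knockdown beside all 36147 HCFC1 peaks listed in control cells, 48757 of the 70638 peaks in the 3 HCFC1 lists of the study. ChIP-seq, in which DNA bound by a protein is immunoprecipitated and sequenced, was done in Hepa1-6, a wild-type mouse hepatoma line whose cell type is labelled hepatocyte. Cells received scrambled control small interfering RNAs (siRNAs) or siRNAs against Hcfc1 in 2 transfections of 100 nM spaced 48 h apart, given in the labels as 200 nM and 96 h. The other condition, siRNA against ERRα on the same schedule, is used below only for values side by side, and it shares the control list. Each immunoprecipitation used 30 µg of chromatin and an antibody against HCFC1 or non-specific rabbit IgG, and 2 independent immunoprecipitations were pooled into 1 library per condition. There is therefore 1 library on each side, no difference below has a replicate check, and no p-value was computed. How far HCFC1 fell was not analysed here, so a kept peak cannot be told apart from a site served by HCFC1 that escaped depletion.

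HCFC1 (host cell factor C1) is a large nuclear protein that binds no DNA sequence of its own. It is carried to promoters by DNA-binding partners, among them THAP11 and ZFP143, the ETS factor GABPA, YY1, E2F factors and MYC, and it brings histone-modifying enzymes such as the SET1 and MLL methyltransferases, SIN3 deacetylase, the O-GlcNAc transferase OGT and the deubiquitinase BAP1. It is known for its part in cell-cycle progression and in the transcription of housekeeping and mitochondrial genes. A control peak is called kept here when at least 1 bp of an HCFC1-knockdown peak lay over it, and lost when none did. Lost means that no peak was listed, not that no HCFC1 was there. Each peak carries the authors' own score, whose scale is not stated. Scores were used only to describe, rank and bin peaks within a list. Intervals are exact binomial (Clopper-Pearson) 95% intervals and cover counting error only, and the read depth behind the lists is unknown. Positions are on mm10.

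The promoter sequences that bear on the result are shown first. In the HCFC1-knockdown list the highest promoter scores went with ACTACAANT, the core of the site bound by THAP11 and ZFP143. Sites from promoters high in the knockdown list are printed with the core in capitals, each written on the strand where the core reads 5′ to 3′. They come from RefSeq promoters of GRCm38.p6, the assembly behind mm10, and lie upstream of the annotated start. Fen1 encodes a flap endonuclease of DNA replication, Gtf2h4 a subunit of the general factor TFIIH, Timm22 a mitochondrial import channel, and Stk25 a kinase. The authors assign the peak over the Arv1 sites to Arv1 in the control list (3301) and to Ttc13 in the HCFC1-knockdown list (4288).
Fen1 (chr19:10204137-10204166, + strand): tgggACTACAAGTcccacaatgccacgcgc
Gtf2h4 (chr17:35673755-35673784, - strand): gaggACTACAATTcccaagatgccttgcga
Gtf2h4 (chr17:35673817-35673846, + strand): tctgACTACAAATccctaaaggcaccgcaa
Arv1 (chr8:124722088-124722117, + strand): ttggACTACAAGTcccagtaagcccttggg
Arv1 (chr8:124722027-124722056, - strand): gaggACTACAACTcccagcgggtactgcgg
Timm22 (chr11:76406909-76406938, + strand): tagaACTACAAATcccggcacgcaccgcaa
Stk25 (chr1:93635748-93635777, + strand): tgagACTACAAGTcccagcaggctgcgcgg
Stk25 (chr1:93635820-93635849, + strand): acagACTACAAGTcccaggagaacttgcgg

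A core by itself did not mean that a peak was kept. The next sites lie in promoters whose control peak was lost: Zfp108, a zinc finger gene with a control score of 308, Mtm1, the myotubularin gene, with 91, and Parp11 with 34.
Zfp108 (chr7:24254712-24254741, - strand): cagaACTACAATTcccagaatgcctcggcg
Mtm1 (chrX:71214782-71214811, + strand): gccaACTACAATTcccagatgtctctacgc
Parp11 (chr6:127446596-127446625, + strand): agaaACTACAAATgaaatattgtatgccct

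The Hcfc1 promoter had the highest score of all promoter peaks that were lost, and Nelfa, a subunit of the negative elongation factor, was among the kept promoters that stood lowest in the knockdown list for their control score. The 250 bases upstream of each start are printed with every match to the motifs searched in capitals. These are AANATGGCG of YY1 and GGGCGG of the SP family in Hcfc1, and the same motifs in Nelfa, where a match on the other strand reads as its reverse complement. Neither stretch holds ACTACAANT on either strand.
Hcfc1 (chrX:73966358-73966607, - strand): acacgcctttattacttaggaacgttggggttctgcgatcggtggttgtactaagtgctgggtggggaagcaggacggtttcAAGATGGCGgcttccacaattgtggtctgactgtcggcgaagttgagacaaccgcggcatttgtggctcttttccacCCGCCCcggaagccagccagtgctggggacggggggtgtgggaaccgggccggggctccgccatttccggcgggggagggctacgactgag
Nelfa (chr5:33936272-33936521, - strand): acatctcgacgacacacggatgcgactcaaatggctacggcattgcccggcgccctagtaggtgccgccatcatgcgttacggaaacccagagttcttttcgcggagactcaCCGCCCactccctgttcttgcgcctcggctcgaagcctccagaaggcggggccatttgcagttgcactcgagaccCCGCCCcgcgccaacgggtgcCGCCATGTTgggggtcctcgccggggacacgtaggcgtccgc

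The targeted gene was itself a site of HCFC1. The Hcfc1 promoter (chromosome X, 73965347 to 73968142) had a control score of 1924, rank 256 among control promoter peaks, and no peak after HCFC1 knockdown. The nearest HCFC1-knockdown peak lay 117010 bp away. After ERRα knockdown the same place had a score of 2760 in that list. A smaller control peak in intron 1 of Hcfc1, with a score of 76, was also lost. Among 558 promoters scoring 1000 or more in control cells, 557 were kept (99.8%, 99.0 to 100.0%), and Hcfc1 was the exception. These peaks report HCFC1 on its own gene and do not measure how much Hcfc1 RNA or protein was left. Hcfc2, the paralog, kept its peak near the start, at 511 in the control list and 112 in the HCFC1-knockdown list.

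Before shares are read, one property of the lists matters. Every HCFC1-knockdown peak lay within 20 kb of an annotated transcription start, from -19994 to 19988 bp. The same held after ERRα knockdown, from -19993 to 19987 bp. The control list ran from -1710904 to 1580013 bp, and 10630 of its peaks (29.4%) lay 20 kb or more from a start. Of these and of 10 peaks with no distance, 1 was kept after HCFC1 knockdown and 9 after ERRα knockdown. The sources used here do not say what set this limit, and loss beyond 20 kb could not be measured. Among all control peaks 8045 were kept (22.3%, 21.8 to 22.7%). Among the 25507 control peaks within 20 kb the share was 31.5% (8044 peaks, 31.0 to 32.1%), and that set is used for places below. Without this limit the strongest lost peaks outside promoters, at Lrrc4c (3667), Zfp958 (3518) and Gm21119 (3250), lay beyond 20 kb and were absent from both knockdown lists.

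**Figure D1:**
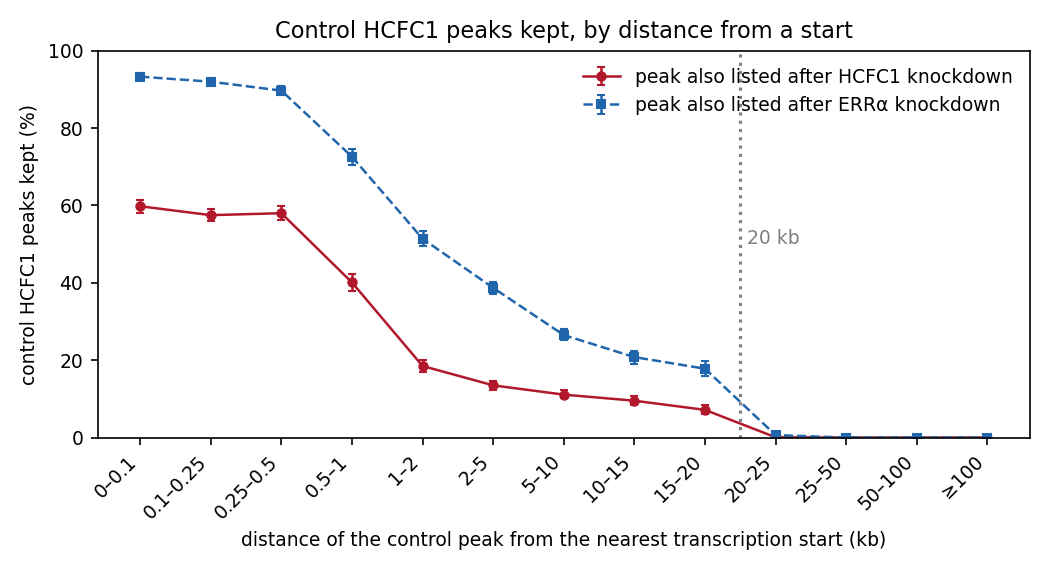
Share of control HCFC1 peaks kept after HCFC1 knockdown (red) and after ERRα knockdown (blue), by distance of the peak from the nearest transcription start in kb; points are shares and bars exact 95% intervals, and both comparisons share the control list. The share after HCFC1 knockdown falls from 59.8% within 0.1 kb to 7.16% at 15 to 20 kb, and both lines drop to near 0 past 20 kb.

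HCFC1 peaks at and just downstream of transcription starts were kept most often. At promoters 3218 of 5787 control peaks were kept (55.6%, 54.3 to 56.9%), and in 5′ untranslated regions 670 of 1105 (60.6%, 57.7 to 63.5%). Away from promoters, within 20 kb, 4826 of 19720 peaks were kept (24.5%, 23.9 to 25.1%). The share was 43.6% in non-coding transcripts, 40.9% in exons, 24.9% at transcription termination sites, 21.7% in introns, 12.8% in 3′ untranslated regions and 10.6% (9.72 to 11.5%) in intergenic stretches. Peaks in the first exon and the first intron were kept more often than later ones. In exon 1, 58.4% of peaks were kept (771 of 1320), against 27.3% in later exons (467 of 1708). In intron 1 the share was 28.3% (1653 of 5837), against 11.1% in later introns (408 of 3661). By distance alone, 59.8% (58.0 to 61.5%) were kept within 0.1 kb of a start, 58.0% at 0.25 to 0.5 kb, 40.1% at 0.5 to 1 kb, 18.5% at 1 to 2 kb and 7.16% (6.00 to 8.47%) at 15 to 20 kb. After ERRα knockdown the values at the first and last of these distances were 93.3% and 17.8%.

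Most of the gap between promoters and other places went with the score of the control peak. The median control score was 96.0 at promoters and 35.0 elsewhere within 20 kb. Among peaks scoring 100 to 199, 66.7% were kept at promoters (63.7 to 69.5%) and 66.9% elsewhere (64.4 to 69.4%). At 200 to 499 the shares were 86.1% and 87.6%, at 500 to 999 they were 98.0% and 97.2%, and at 1000 and above 99.8% and 99.7%. At each of these levels the intervals overlapped. The other places differed among themselves at like score. Intergenic peaks kept 20.6% (17.6 to 23.8%) at 50 to 99 and 46.2% (35.0 to 57.8%) at 100 to 199, below promoters in both bands. At 200 to 499 they kept 71.4% (55.4 to 84.3%), and peaks in 5′ untranslated regions 93.1% (88.3 to 96.4%). At 500 to 999, 12 of 12 intergenic peaks were kept. Below 100, promoter peaks were kept more often. The shares were 43.1% (40.3 to 45.9%) and 33.9% (32.3 to 35.5%) at 50 to 99, 11.1% and 7.74% at 20 to 29, and 19.5% and 6.83% at 13 to 19. At 30 to 49, 217 of 936 were kept at promoters and 839 of 5976 elsewhere. The exon pattern narrowed in the same way, since at scores of 100 and above exon 1 kept 80.5% and later exons 83.2%. For introns the corresponding shares were 78.6% in intron 1 and 70.8% in later introns. At scores under 100, which held most of these peaks, the gaps remained. Exon 1 kept 41.5% (37.9 to 45.1%) there and later exons 22.7% (20.7 to 24.9%). Intron 1 kept 15.5% (14.5 to 16.6%) and later introns 9.37% (8.43 to 10.4%).

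**Figure D2:**
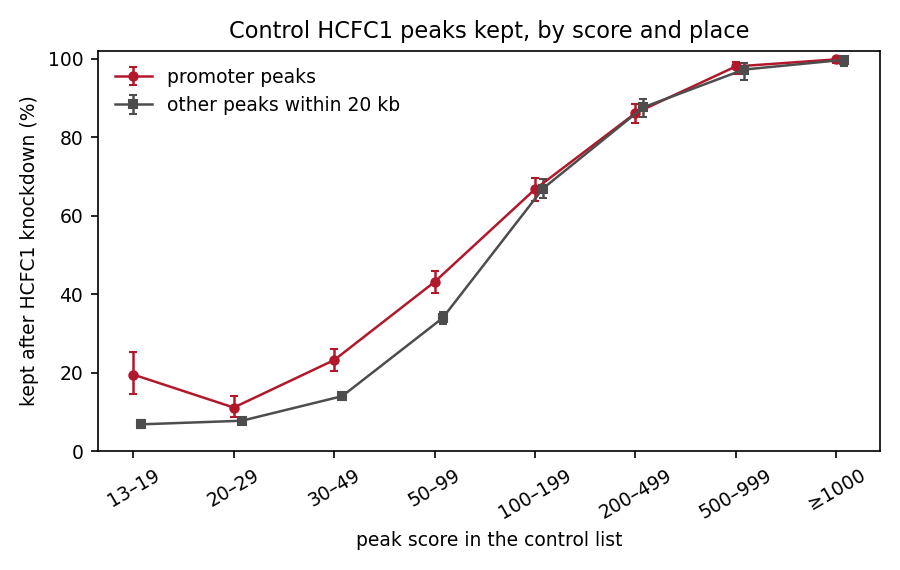
Share of control HCFC1 peaks within 20 kb of a start that were kept after HCFC1 knockdown, in bands of the control peak score, for promoter peaks (red) and other peaks (grey); bars are exact 95% intervals. The lines separate below a score of 100 (43.1% and 33.9% at 50 to 99) and coincide above it (66.7% and 66.9% at 100 to 199).

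Within bands of control score, wider peaks were kept more often. At scores of 50 to 99, the wider 50% of peaks (median width 1002 bp) were kept in 50.4% of cases (48.3 to 52.4%) and the narrower 50% (439 bp) in 22.4% (20.7 to 24.1%). At 100 to 199 the shares were 79.2% and 54.5%. Wider and narrower peaks were not matched for score inside a band. Median width rose with score, from 670 bp at 50 to 99 to 1087 bp at 100 to 199. A wide peak also offers more bases to overlap. The part of score and of width in these shares was not tested. Where 1 control peak met 1 HCFC1-knockdown peak, in 7214 pairs, the knockdown peak was narrower, with a median of 604 bp against 1084 bp and a median ratio of 0.647. In 57.6% of the pairs it lay wholly inside the control peak, and the median offset between centres was 140 bp. Overlaps of at most 20 bp carried 44 kept peaks. On the other side, 1094 lost peaks, 226 of them at promoters, had an HCFC1-knockdown peak within 500 bp. The order of scores was shared in part, with a Spearman rho of 0.62 over the 7214 pairs and 0.72 over 2903 promoter pairs, given as descriptions of lists from the same cell line.

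After Hcfc1 came Rpl13a, a ribosomal protein of the large subunit (chromosome 7, 45127834 to 45130489), with a control score of 745 and the nearest HCFC1-knockdown peak 1018 bp away. Zfp617 followed with 704 and Caml, which inserts tail-anchored proteins into the endoplasmic reticulum, with 684. Uba1, the main ubiquitin-activating enzyme, on chromosome X (20657660 to 20659242), had 634, and its nearest HCFC1-knockdown peak was 302503 bp away. Below it stood 2210417A02Rik (618), Gm5129 (528), Dpysl5 (506) and Ubl7 (481). Each of those named had a peak in the ERRα-knockdown list, with scores there from 986 at Dpysl5 to 2760 at Hcfc1.

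The other 15 of the 25 strongest lost promoters scored between 351 and 472. Parg, which removes poly(ADP-ribose), scored 465, Neil1, a DNA glycosylase, 401, and Aptx, which resolves abortive ligation products, 360. Sepsecs, which makes selenocysteinyl-tRNA, scored 469, Rnu3a, a U3 small nucleolar RNA, 437, and Nop53, a ribosome biogenesis factor, 358. Nr3c1, the glucocorticoid receptor, had a control score of 396, a score of 1702 in the ERRα-knockdown list, and no HCFC1-knockdown peak within 498140 bp. Zbtb6 scored 408, 2310022A10Rik 404, Rwdd1 385, Enox2 374, Rsrc1 371, Mfsd13a 353 and Txlna 351. Lyrm1 (472) was a near miss, since an HCFC1-knockdown peak lay 86 bp from its edge.

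Outside promoters and within 20 kb, the strongest lost peak in an exon was at Ptdss2, phosphatidylserine synthase, 201 bp from the start in exon 1, with a control score of 878 and 2434 in the ERRα-knockdown list. Yipf4 (413), Igbp1 (406), Rilpl1 (344) and Tmem183a (336) followed. In introns the strongest were Dnm1, dynamin (626), Tbc1d14 (574), Psmb6, a proteasome subunit (559), Mettl16, an RNA methyltransferase (551), and Emilin1 (544). In 5′ untranslated regions they were Actr6 (393), Rhot1, a mitochondrial GTPase (359), Kifap3 (256), Uqcrq, a complex III subunit (254), and Kpna4 (241). At transcription termination sites they were Atp5g2 (407), Lrrc14 (284), Gm5535 (269), Samm50 (259) and Pwp2 (220). Genes are named by the nearest start, so the annotated place can belong to another transcript. The Atp5g2 and Pwp2 peaks lay 158 and 261 bp from those starts, and the Samm50 peak at -2170 bp. The intron peaks named lay 294, 326, 372, 477 and 2071 bp from them, in the order given. Those in exons after Ptdss2 lay 279, 155, 551 and 412 bp from them. In 3′ untranslated regions none exceeded Rpl10a at 84. Among intergenic peaks, those at Mir101c (1147 and 357) lay beside a kept one of 5804, and Stard10 (459) and Rdm1 (391) were lost too.

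Promoters at the top of the control list kept their peaks but not their order. Btrc, a ubiquitin ligase substrate receptor, scored 12412 in the control list and 3126 in the HCFC1-knockdown list, and Maf1, a repressor of RNA polymerase III, 11070 and 2286. Hsph1, a heat shock protein, scored 10375 and 1333, Eny2, an mRNA export and deubiquitination factor, 10302 and 4402, and Dus3l, a tRNA dihydrouridine synthase, 9255 and 549. These pairs are on separate scales, so only their order within each list can be read. In that order Eny2 stood above Btrc and Maf1 after HCFC1 knockdown, and Dus3l far below them. Pisd-ps3, a pseudogene on an unplaced contig, led the control list at 30879 and had 2767.

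The highest HCFC1-knockdown peaks, named after their values were seen, were at Rn45s, the ribosomal RNA precursor (11497, control 4339), Fen1 (8022, control 6582), Zcchc8, a subunit of the nuclear exosome targeting complex (6611, control 3349), Calcoco1 (6262, control 6368), Fyco1 (5604, control 8835), Ncln (4926, control 8460) and Pa2g4 (4877, control 5818). Rn45s stands for a repeated gene, so reads from its copies cannot be told apart. Smarcal1, an annealing helicase, scored 4240 and Wnk1, a kinase of ion transport, 4108.

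Some peaks were kept with a score near the floor of the HCFC1-knockdown list. Pairs in any place with a control score of 200 or more numbered 2716 and were ranked within each list. Nelfa moved furthest down, from rank 226 to 2503, with scores of 2220 and 30. Zfp37 moved from 134 to 2270 (2909 and 42), Ippk, an inositol phosphate kinase, from 504.5 to 2565 (1358 and 26), and Tcp11l1 from 517.5 to 2527.5 (1343 and 29). Srek1, a splicing regulator (1169 and 24), Ube3c, a ubiquitin ligase (1198 and 30), and Dhps, the first enzyme of hypusine synthesis (926 and 20), went the same way. In the ERRα-knockdown list these 7 scored from 1138 at Srek1 to 6112 at Zfp37. Upward moves were led by Arhgap10, from rank 2599.5 to 452 (211 and 350), and Hymai, an imprinted non-coding RNA, from 2424.5 to 311.5 (232 and 561). Irx1, a homeobox gene (231 and 424), Srxn1, sulfiredoxin (239 and 339), Hspa1a, an inducible heat shock protein (236 and 292), and the histone gene Hist1h4i (268 and 304) also moved up. A peak assigned to Limd1 scored 389 and 1492. It lay at -16701 bp from the Limd1 start, in a 3′ untranslated region that can be of another transcript. Limd1 was named as one of the strongest kept peaks of its class. The other genes were picked for their ranks, and the moves are descriptions.

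Motifs were counted in RefSeq promoter windows of 300 bases, 250 before to 50 after each start, on both strands. Of 5787 control promoter peaks, 4042 (69.8%) overlapped a window of their own gene, and 61.1% of these were kept. The windows hold no gene of chromosome 18. ACTACAANT stood in 490 of 32851 windows (1.49%). Of those 490 windows, 69.4% overlapped a control peak by at least 1 bp and 66.7% an HCFC1-knockdown peak. All windows together gave 32.3% and 18.5%. Among control promoter peaks 185 (4.58%) had the motif and 179 of them were kept (96.8%, 93.1 to 98.8%), against 59.4% (57.8 to 61.0%) of 3857 without it. Their median control scores were 1547 and 115, and the difference in shares went with that. At 500 and above, 165 of 165 with the motif were kept (97.8 to 100%) and 621 of 627 without it (99.0%, 97.9 to 99.6%), which overlap. At 30 to 99, 2 of 7 with it were kept. The 6 lost were Zfp108 (308), Mtm1 (91), Asns, asparagine synthetase (83), Igf2bp3 (40), Parp11 (34) and Zfp358 (31). At 100 to 199, 2 of 2 with the motif were kept, and at 200 to 499, 10 of 11. In each band that held such peaks the intervals with and without the motif overlapped.

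The score that kept promoters reached in the HCFC1-knockdown list did differ with this motif at like control score. At control scores of 500 to 999, the median HCFC1-knockdown score was 236 (quartiles 158 and 427, 32 peaks) with ACTACAANT and 115 (69.0 and 171, 292 peaks) without it. In that band the median control scores were 773 and 694 and the ERRα-knockdown medians 1545 and 1287, so the peaks with the motif stood higher in all 3 lists. At 1000 to 1999 the medians were 640 (331 and 1080, 61 peaks) and 238 (138 and 430, 206 peaks), and 50 of the 61 (82.0%) stood above the median without the motif. At 2000 and above they were 1174 (571 and 2088, 72 peaks) and 618 (296 and 1281). In the ERRα-knockdown list the same peaks at 1000 to 1999 had medians of 2653 with the motif and 2656 without it, and at 2000 and above 5410 and 5163. Median control scores within the band 1000 to 1999 were 1333 and 1382, median widths 1968 and 1846 bp, and median GC content 57.3% and 60.0%. In the lower-GC 50% of these promoters the HCFC1-knockdown medians were 604 and 267, and in the higher-GC 50% 662 and 197. Among the 50 highest HCFC1-knockdown scores of these promoters, 27 had the motif (54.0%), against 16 of the 50 highest control scores (32.0%). Among the 100 highest the shares were 52.0% and 40.0%, and among the 200 highest 46.0% and 37.0%.

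**Figure D3:**
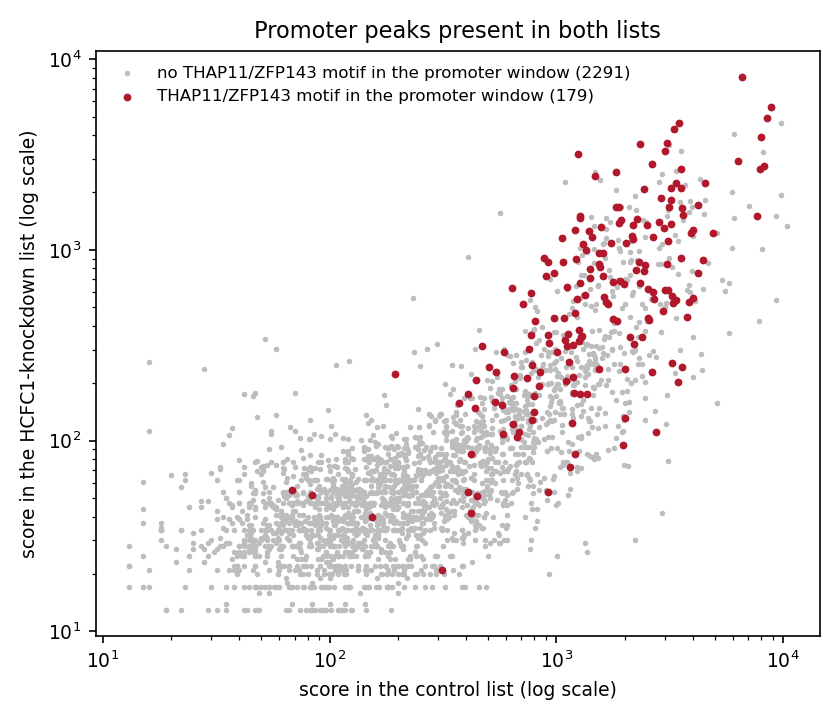
Control score (horizontal, log scale) and HCFC1-knockdown score (vertical, log scale) of each kept promoter peak that overlapped a RefSeq window of its gene, with (red, 179 peaks) or without (grey, 2291 peaks) the THAP11 and ZFP143 motif; the axes are separate scales of the authors. At control scores of 1000 to 1999 the red points have a median of 640 on the vertical axis and the grey points 238.

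The bases after the core went with whether its promoter window met a peak. The position of the core inside the peak was not tested. Counting each site once, 214 cores were followed directly by CCCA. For 203 of them (94.9%, 91.0 to 97.4%) the window overlapped a control peak by at least 1 bp. For 198 (92.5%, 88.1 to 95.7%) it overlapped an HCFC1-knockdown peak. Of 246 cores followed by other bases, 110 (44.7%, 38.4 to 51.2%) had a window overlapping a control peak. For 102 (41.5%, 35.2 to 47.9%) the window overlapped an HCFC1-knockdown peak. Among the sites printed above, those of Fen1, Arv1 and Stk25 and the first of Gtf2h4 have the longer form, as do the lost Zfp108 and Mtm1, while Timm22, Parp11 and the other Gtf2h4 site do not.

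The YY1 motif went the other way among strong peaks, and it was not alone in this. AANATGGCG stood in 2.38% of all windows and in 6.88% of the control promoter peaks matched to a window. With it 75.9% (70.4 to 80.8%) of 278 peaks were kept, against 60.0% without it, at median control scores of 279 and 117. At control scores of 1000 to 1999, kept peaks with it had a median HCFC1-knockdown score of 188 (98.0 and 295, 33 peaks) and those without it 298 (166 and 651, 234 peaks). At 500 to 999 the medians were 88.0 and 129, and at 2000 and above 444 and 847. In the ERRα-knockdown list the medians at 1000 to 1999 were 2484 and 2675. In that band the median control widths were 1568 bp with the YY1 motif and 1914 bp without it. Some peaks without the YY1 motif hold ACTACAANT, and the 2 comparisons are not independent. At 1000 to 1999 the HCFC1-knockdown medians with and without TGACGTCA of the CREB family were 171 (8 peaks) and 287. With and without the ETS motif CCGGAAGT they were 225 (37 peaks) and 290. The NRF1 and SP motifs also went with lower medians in that band, and the E2F, NFY and TATA motifs with higher ones.

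The ETS motif CCGGAAGT, read by GABPA, was in 3.89% of windows and 11.1% of matched peaks. Of these 449 peaks 74.2% (69.9 to 78.2%) were kept, against 59.5%, at median control scores of 228 and 113. Kept peaks with it at 2000 and above had a median HCFC1-knockdown score of 336 (20 peaks), against 846 without it (175 peaks), and at 200 to 499 both medians were 58.0. The E2F motif GCGGGAA (63.7% kept with it, 60.8% without), the CREB motif TGACGTCA (63.5% and 61.0%), the NRF1 motif GCGCNTGCG (63.1% and 60.7%) and the TATA box TATAAA (64.5% and 60.9%) gave overlapping intervals. CCAAT of NFY gave 58.9% and 62.5%. GGGCGG of the SP family gave 61.2% and 61.0% over all scores, at median control scores of 116 and 156. Within bands of control score, peaks with GGGCGG were kept more often at 100 to 199, in 67.6% (63.9 to 71.1%) against 56.1% (48.1 to 63.8%). At 30 to 99 the shares were 38.6% and 31.8%, at 200 to 499 86.6% and 84.0%, and at 500 and above 99.0% and 99.7%. The ERR site TCAAGGTCA was in 0.423% of windows and 6 matched peaks, of which 3 were kept. These motifs stood in 4.60% (E2F), 1.79% (CREB), 6.31% (NRF1), 13.6% (TATA), 35.7% (SP) and 37.4% (NFY) of all windows. GGGCGG and GCGGGAA can share bases, and a match is a run of letters, not a measured site. GC content stood higher in kept promoters of low score. At control scores of 30 to 99 the median was 67.0% in kept and 63.7% in lost promoters, at 100 to 199 66.4% and 63.7%, and at 500 and above 60.0% and 60.7%.

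Promoters on chromosomes 9, 12, 14 and X lost their peaks more often than those elsewhere. These chromosomes were singled out after their values were seen. The share of control promoter peaks kept was 34.6% on chromosome 9 (97 of 280, 29.1 to 40.5%), 38.8% on 12 (71 of 183, 31.7 to 46.3%), 37.1% on 14 (63 of 170, 29.8 to 44.8%) and 30.0% on X (27 of 90, 20.8 to 40.6%). On the other 16 autosomes it ran from 53.0% on 16 to 67.3% on 13, and chromosomes 1 to 19 together gave 56.0%. At control scores of 50 to 199 the shares were 29.6%, 30.1%, 28.8% and 26.8% on 9, 12, 14 and X, against 43.3% on 16 (30.6 to 56.8%) to 69.4% on 19. In that band 95.1 to 100% of the same peaks on these 4 chromosomes were overlapped after ERRα knockdown. At scores of 200 and above, 129 of 154 (83.8%, 77.0 to 89.2%) were kept on 9, 12 and 14 together, 11 of 17 on X (64.7%, 38.3 to 85.8%) and 1528 of 1622 on the other autosomes (94.2%, 93.0 to 95.3%). Other peaks within 20 kb at scores of 50 to 199 followed, with 32.9% kept on 9, 12, 14 and X and 44.7% on the other autosomes. These 4 chromosomes were among the 5 with the fewest control peaks, which were X (302), 16 (568), 12 (599), 14 (634) and 9 (958). Chromosome 16 kept 53.0%, and chromosomes 18 (1163) and 13 (1214), next in number, kept 62.1% and 67.3%. The part of peak number in the shares kept was not tested.

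**Figure D4:**
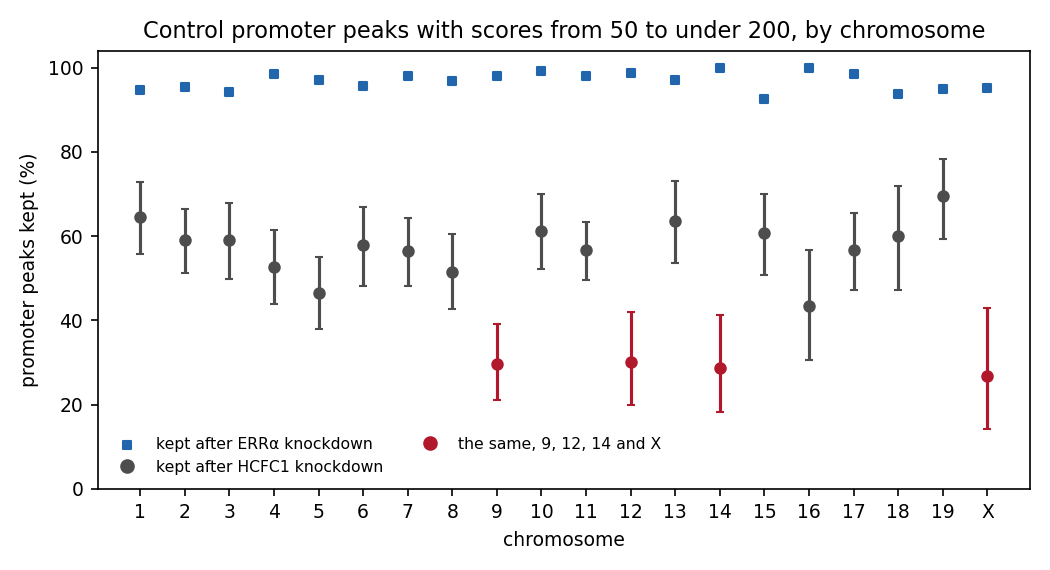
Share of control promoter peaks with scores of 50 to 199 kept after HCFC1 knockdown, by chromosome (circles with exact 95% intervals; red for 9, 12, 14 and X), and after ERRα knockdown (blue squares). The red circles lie between 26.8% and 30.1%, the grey ones between 43.3% and 69.4%.

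On chromosome X, 8 promoters besides Hcfc1 had a control score above 400. Of these Ccdc22 (1537 in the control list, 238 in the HCFC1-knockdown list), Tbc1d8b (921 and 861), Fam120c (878 and 304), Atg4a, an autophagy protease (739 and 212), Eif2s3x, an initiation factor subunit (677 and 85), Foxo4, a forkhead factor (621 and 28), and Gm6787 (409 and 62) were kept, and Uba1 (634) was lost. Between 200 and 400, Enox2 (374), Tab3, a kinase adaptor (284), Rbm41 (241) and Siah1b (237) were lost, and Hdac8, a deacetylase (397 and 138), Rpl10 (328 and 34), Pin4 (317 and 62) and Msl3 (219 and 62) were kept.

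Among 39 genes for HCFC1 and its partners, 16 had a control promoter peak and 13 of them were kept (81.2%, 54.4 to 96.0%), at a median control score of 540. For all 5567 genes with a control promoter peak the share was 57.1% (3179 genes, 55.8 to 58.4%) and the median score 100. Here and in the lists below, a promoter peak is one the authors annotated as promoter. Peaks just downstream of a start can carry another annotation, as the kept control peaks of Hcfc2 (intron 1, 193 bp) and Yy1 (5′ untranslated region, 106 bp) did. By a peak within 1000 bp of the start, 10302 genes were occupied, so counts by annotation leave out many such genes. At control scores of 200 and above, 10 of 12 of the partner list were kept (83.3%), against 93.1% of all genes. Max, the partner of MYC, scored 4533 in the control list and 2247 in the HCFC1-knockdown list, Thap11 3631 and 1434, Gabpa 1228 and 204, and Sap30, a SIN3 subunit, 1139 and 460. Zfp143 (823 and 67) and Gabpb1 (560 and 29) were kept with low scores. Hcfc1 (1924), E2f1 (212) and the deacetylase Hdac1 (47) were lost. Bap1 had no peak in the control list as analysed here, an HCFC1-knockdown peak of 94 and a peak of 943 in the ERRα-knockdown list.

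Gene lists differed in the share kept and in their control scores, and the relation between both was not tested. Against 57.1% of all genes, 12 of 13 nuclear pore genes were kept (92.3%, 64.0 to 99.8%), with Ndc1 at 9277 in the control list and 1505 in the HCFC1-knockdown list, Nup205 at 3959 and 778, and Pom121 (21) lost. Of the cytosolic ribosomal proteins 33 of 36 were kept (91.7%, 77.5 to 98.2%), led by Rpl7 (4121 and 1430) and Rplp2 (3424 and 1108), and Rpl13a (745), Rpl14 (92) and Rps14 (22) were lost. Histone acetylation complexes kept 16 of 18, among them Sgf29 (1785 and 435) and Kat2a, the GCN5 acetyltransferase (1488 and 314). Heat shock and chaperonin genes kept 19 of 22, with Hsp90b1 at 5383 and 692 and Hspa13 at 1581 and 2008, while Hspa8 (76) was lost. Aminoacyl-tRNA synthetases kept 13 of 15, DEAD-box and DEAH-box helicases 18 of 21 and translation initiation factors 22 of 27. The median control scores of these 7 lists ran from 219 to 608. The lists were chosen with earlier results of these data known, and nothing particular to a list is read from its share.

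Mitochondrial lists differed among themselves in share kept and in control score, beside the 57.1% and the median score of 100 of all genes. Median control scores were 67.0 for fatty acid oxidation and 121 for the TCA cycle and pyruvate dehydrogenase. They were 383 for mitochondrial ribosomal proteins and 346 for respiratory complexes. The part of score in these shares was not tested. Fatty acid oxidation genes kept 6 of 12 (50.0%) and TCA cycle and pyruvate dehydrogenase genes 9 of 15 (60.0%). Mitochondrial ribosomal proteins kept 25 of 33 (75.8%, 57.7 to 88.9%), with Mrpl34 at 3383 and 2237. Respiratory complexes kept 34 of 45 (75.6%, 60.5 to 87.1%), with Ndufb5 at 5915 and 1020 and Uqcr10 at 3197 and 1359, while Atpaf1 (346), Sdhd, a complex II subunit (306), Ndufs6 (288) and Ndufa5 (276) were lost. For genes with a control score of 200 or more, the respiratory list kept 26 of 30 (86.7%) and RNA polymerase and Mediator genes 15 of 19 (78.9%), against 93.1% of all 1788 such genes. The 4 lost in the second list were Med8 (295), Polr2f (216), Med17 (210) and Polr2m (203). DNA replication genes kept 17 of 31, with Fen1 at 6582 and 8022 and Lig1, DNA ligase 1, at 2517 and 1346, and Rfc4 (268) and Pold1 (205) lost.

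Some lists kept a smaller share than the 57.1% of all genes. Mitochondrial Slc25 carriers kept 6 of 17 (35.3%, 14.2 to 61.7%) at a median control score of 66.0. Cholesterol and fatty acid synthesis genes kept 6 of 16 (37.5%, 15.2 to 64.6%) at 64.5. There Fdps, farnesyl diphosphate synthase (2008 and 2878), and Acly (1115 and 315) were kept, and Srebf1 (57), Scd2 (55), Hsd17b7 (72) and Tm7sf2 (106) were lost. Tmem genes kept 31 of 72 (43.1%, 31.4 to 55.3%) at 124, a median above that of all genes. MYC-MAX network and E2F genes kept 7 of 15 at 176, with Rbl2 (2310 and 982) kept and Lin37 (348) and E2f1 (212) lost. Histone genes, at a median control score of 61.5, kept 20 of 30 (66.7%, 47.2 to 82.7%), a share above that of all genes. The cobalamin list, also above it, kept 5 of 8 (62.5%) at 121, with Mmachc, a vitamin B12 processing enzyme, at 7836 and 425. Of 37 hepatocyte identity genes 7 had a control promoter peak, at a median control score of 34.0 and none at 200 or above. Of these 7, 1 was kept (14.3%, 0.361 to 57.9%), Cebpb (121 and 54), while Foxa2 (56) and Rbp4 (68) were lost. Among all control promoter peaks scoring 30 to 49, 23.2% were kept. Of 6 occupied cytochrome P450 genes 0 were kept (0 to 45.9%), at a median of 46.0. A control promoter peak was present at 0 of 20 immune, 3 of 20 neuron and 1 of 20 muscle marker genes. Peaks do not measure expression, so these lists describe only occupancy by promoter-annotated peaks.

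**Figure D5:**
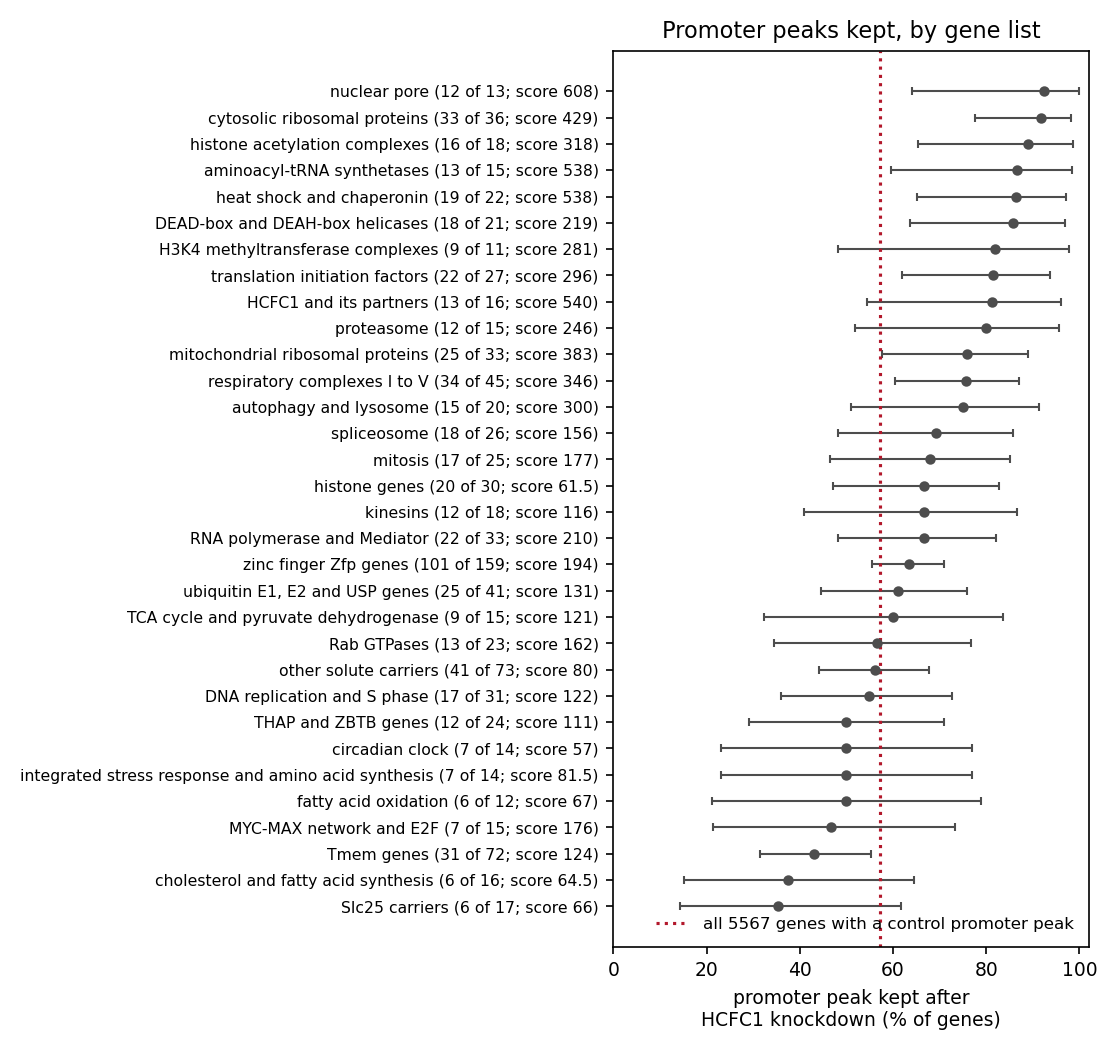
Share of genes with a control promoter peak whose peak was kept after HCFC1 knockdown, for lists with at least 10 such genes; bars are exact 95% intervals, the brackets give the genes kept and the median control score, and the dotted line is the 57.1% of all 5567 genes. Nuclear pore (92.3%) and cytosolic ribosomal genes (91.7%) lie at the top and Slc25 carriers (35.3%) at the bottom.

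Within a gene, the promoter peak was kept alone more often than another peak was. Among 13192 genes with a control peak within 20 kb, 6856 (52.0%) kept at least 1. In the 2816 genes with both a promoter peak and another peak, the promoter peak alone was kept in 1206, another peak alone in 351, both in 415 and neither in 844. These counts were not matched for score. Over all control peaks within 20 kb, the median score was 96.0 at promoters and 35.0 elsewhere. The strongest lost promoters with another peak kept were those of Pold1, a DNA polymerase subunit (205), Zfp68 (194), Dapk3 (187) and Tent4b (176), and Ddit3, the stress factor CHOP, was among them (137). Promoters of non-coding RNA genes were kept in 41.7% (159 of 381), against 56.7% of protein-coding genes, at median scores of 54.0 and 100. At scores of 50 to 199 the shares were 56.3% and 53.8%.

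HCFC1-knockdown peaks without a control peak mostly had low scores. They made up 4297 of 12610 (34.1%, 33.2 to 34.9%), from 60.2% of peaks scoring 13 to 19 to 2.55% of those scoring 100 to 199. At 200 and above there were 3, at Gm3704 (229), Alox5ap (218) and 4930517M08Rik (1626). By place, 8.93% of HCFC1-knockdown promoter peaks had no control peak, 32.4% of those in exons, 47.4% in introns and 66.9% in intergenic stretches. Of the 4297, 1222 (28.4%) also lay under a peak of the ERRα-knockdown list, with 49.3% at scores of 50 to 99 and 16 of 21 at 100 to 199. Both knockdown lists are set against the same control list, so a peak gained after knockdown and one absent from that list alone cannot be told apart here. The strongest outside promoters, besides those 3, were at Nkx2-4 (198) and Lbx1 (180), both homeobox genes, H19, an imprinted RNA (173), and Nbea (147). The strongest promoters were Sall3, a zinc finger gene (142), Cthrc1 (120), Gabbr2 (102), Sstr3, a somatostatin receptor (91), and Tlr2, a Toll-like receptor (89). HCFC1-knockdown peaks that met only weak control peaks, under 50, were led by Tmeff1 (258, control 49), Adamts9 (238, control 28) and Ntn1, netrin 1 (197, control 39), with the homeobox genes Uncx (175, control 18) and En1 (173, control 43) and the growth factor gene Tgfb2 (172, control 31).

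Developmental genes, matched by name after these peaks had been seen (homeobox, forkhead, Sox, T-box, Gata, Wnt, Bmp, Fgf and related families), held 101 of the 4297 peaks without a control peak (2.35%, 1.92 to 2.85%). They held 111 of the 8313 with one (1.34%, 1.10 to 1.61%). At HCFC1-knockdown scores of 50 and above the shares were 4.87% (15 of 308, 2.75 to 7.91%) and 1.33% (51 of 3829, 0.993 to 1.75%). Of control peaks within 20 kb at such genes, 111 of 311 were kept (35.7%, 30.4 to 41.3%), beside 31.5% of all.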

How the data were processed

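HCFC1 peaks were compared between the siControl and siHCFC1 libraries of Hepa1-6 cells, 1 library each. Each library pooled 2 independent immunoprecipitations, per a note among the deposited files. Tools named in the submitters' processing notes are HOMER 4.11.1, MACS2 2.1.1.20160309, Picard 2.0.1 and BWA 0.7.12, with the build mm10 and no order of steps. Scores are whole numbers of 13 or more in the lists the authors deposited, and no source used here gives their scale. Start, end, annotation and distance to a transcription start are the authors' deposited values. Depth is unknown, and no source used here says what the IgG libraries, not analysed here, did in peak calling.

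Overlaps (at least 1 bp) and exact binomial 95% intervals were computed in Python 3.11.15 with pandas 2.3.3, numpy 2.4.6 and scipy 1.17.1, after the overlap code was tested on simulated data. Shares were also taken in 8 bands of control score. Genes were matched by identifier to RefSeq (14405 of 14421 in the control list, 8774 of 8783 in the HCFC1-knockdown list), and 10 motifs were searched in RefSeq promoter windows. Named were the 25 strongest lost and 10 strongest kept control promoter peaks, the 5 strongest lost and kept peaks of each other class, the 10 strongest HCFC1-knockdown promoter peaks and 10 others without a control peak, the 10 that met only weak control peaks, up to 4 lost and 4 kept members of each gene list, and Hcfc1 and Hcfc2. Not all of these are printed, and a few items are not reported here. The strongest HCFC1-knockdown peaks, the rank moves and chromosomes 9, 12, 14 and X were named after their values were seen. The members and lists were chosen with earlier results of these data known. The 20 kb limit was found in the lists and added as an alternative after seeing the data. Alternatives were stricter or looser overlap, score limits, equal list length, merging of peaks within 500 bp, other promoter distances and standard chromosomes.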

Additional observations from a re-analysis of the deposited data

How the results depend on the processing

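No paired analysis was possible because each condition has 1 HCFC1 library and no replicate numbers. Of 59 alternatives, 10 stayed within the 95% interval of the reported share and 49 did not. For all control peaks, promoter peaks and other peaks in turn, the reported shares kept were 22.3%, 55.6% and 15.9%. They became 11.8%, 31.3% and 8.06% with a reciprocal overlap of 50%, and 13.3%, 32.8% and 9.54% with centres within 200 bp. They became 25.3%, 59.5% and 18.8% with a gap of at most 500 bp, and 38.3%, 64.7% and 29.2% for the higher-scoring 50% of control peaks. With the higher-scoring 50% of both lists they were 26.7%, 48.5% and 19.2%, with the control list shortened by score to the length of the other 51.1%, 70.0% and 41.8%, and with merging 23.0%, 60.1% and 15.4%. With promoters set at 1000 bp, other peaks gave 7.11%, and at 5000 bp promoters gave 40.8% and other peaks 4.05%. Limits chosen after seeing the data gave 31.5% of all and 24.5% of other peaks within 20 kb, and 58.5% of promoters without chromosomes 9, 12, 14 and X. HCFC1-knockdown peaks without a control peak (34.1%) became 66.2%, 62.0%, 28.9%, 16.8%, 21.8% and 45.7% in the order of the first 6 of these alternatives, where the fourth takes the higher-scoring 50% of the HCFC1-knockdown list. Genes kept (57.1%) became 40.1% when a promoter-annotated knockdown peak was required, 59.3% at 1000 bp, 32.4% with reciprocal overlap, 34.0% by centres and 49.2% with the higher-scoring 50% of both lists. On chromosome X (30.0%) the share was 43.3% at scores of 100 and above and 16.7% with reciprocal overlap. On chromosomes 1 to 19 (56.0%) it was 83.8% at scores of 100 and above, 31.6% with reciprocal overlap, 33.0% by centres, 48.9% with the higher-scoring 50% of both lists and 58.4% without 9, 12 and 14. With ACTACAANT (96.8%) it was 28.6% at scores of 30 to 99, 100% at 100 to 199, 90.9% at 200 to 499 and 100% at 500 and above. Promoters stayed above other peaks under each alternative run for both. In these alternatives the other peaks included those 20 kb or more from a start, where loss could not be measured. Promoter and other peaks were not matched for score there. Within 20 kb and at like control scores of 100 and above, the intervals of their shares overlapped. The causes were not tested beyond what each alternative changes by construction. Depth is unknown, so weak peaks that were lost may lie near the limit of detection in the shorter list.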
